A study of Mus musculus with 2 samples.

Results

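The stretch of mouse chromosome 7 examined here holds the fast skeletal troponin genes Tnni2 and Tnnt3 and the imprinted pair H19 and Igf2. Its members are the FoxO3 peaks of either deposited list whose summit lay between 149610000 and 149870000 on mm9, a stretch of 260 kb. These were 18 of the 45457 peaks of the myotube list and 0 of the 501 peaks of the myoblast list. The assay was ChIP-seq, the sequencing of DNA pulled down with an antibody to FoxO3, in the C2C12 line of mouse myoblasts, which withdraws from the cell cycle and fuses into multinucleated myotubes in low-serum medium. The myoblast sample was taken at hour -24 relative to differentiation medium and the myotube sample at hour 72, when the cells had been moved to medium with horse serum. No gene was altered in either group, the same anti-Foxo3 antibody was used for both, and the source of both samples is labelled as myoblasts, so the stage label and the title tell them apart. Each group is 1 library of 1 cell line, without replicates. Peak lists hold no expression values, so the cells' stage was not checked against marker genes.

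FoxO3 is a forkhead transcription factor that insulin and growth factor signalling keeps out of the nucleus. In muscle it is best known for switching on protein breakdown genes in atrophy, and the title of the series pairs it with MyoD, a myogenic factor that binds E-box sequences. The troponin complex makes contraction of the thin filament depend on calcium: Tnni2 encodes the fast-fibre inhibitory subunit and Tnnt3 the fast-fibre subunit that anchors the complex to tropomyosin. H19 is a long non-coding RNA made from the maternal chromosome and the host of miR-675. Igf2 encodes insulin-like growth factor 2, is made from the paternal chromosome and promotes myoblast differentiation. The imprinted genes share enhancers that lie on the H19 side of the pair, and an insulator bound by CTCF on the maternal chromosome keeps these enhancers from Igf2.

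In the RefSeq gene table of GRCm38.p6, another assembly than that of the peaks, the genes follow each other as Tnni2, Lsp1, Prr33, Tnnt3, Mrpl23, Nctc1, H19, Mir675, Gm33148, Igf2, Mir483, Igf2os and Ins2. Syt8 precedes Tnni2. Lsp1 encodes a leukocyte-specific actin-binding protein, Mrpl23 a mitochondrial ribosomal protein, and Nctc1 is a non-coding RNA transcribed through the muscle enhancer region of H19 and Igf2. This table was used for names and order only. No mm9 annotation was used here, so no peak below is assigned to a promoter, an exon or an intron, and the stretches are given by mm9 coordinates. The rule, and not a test of position, places the members Tnni2, Tnnt3, H19 and Igf2 in the domain. For the same reason, the slow and cardiac troponin genes and the other imprinted genes of this chromosome were not compared.

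Promoter sequences were read from the RefSeq table for GRCm38.p6, as the 250 bases before each listed start. It matched Igf2 with 4 starts. Tnni2, Tnnt3 and H19 had no entry. Of the neighbours, Syt8, Prr33, Mrpl23, Nctc1 and Gm33148 matched with 11 starts in all. The windows of Gm33148 starts 1 to 3 share bases, as do those of Syt8 starts 1 and 2. The 11 are thus not 11 separate sequences. Shown are the Igf2 promoters with forkhead or E-box letters in that window, the promoter of Prr33, the only neighbour's with CAGCTG, and that of Nctc1, chosen for its place in the muscle enhancer region. The letters are TGTTT, the forkhead core, and CANNTG, the E-box, searched on both strands and marked by capitals. All 4 shown are on the minus strand of GRCm38.p6 chromosome 7, and the bases run 5′ to 3′ along the gene and end just before the start.
Igf2, the first start listed: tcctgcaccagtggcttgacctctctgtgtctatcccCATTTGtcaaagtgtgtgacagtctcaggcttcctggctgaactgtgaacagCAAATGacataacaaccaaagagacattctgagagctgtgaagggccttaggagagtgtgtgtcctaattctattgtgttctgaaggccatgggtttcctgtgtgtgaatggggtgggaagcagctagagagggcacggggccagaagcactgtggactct
Igf2, the second start listed: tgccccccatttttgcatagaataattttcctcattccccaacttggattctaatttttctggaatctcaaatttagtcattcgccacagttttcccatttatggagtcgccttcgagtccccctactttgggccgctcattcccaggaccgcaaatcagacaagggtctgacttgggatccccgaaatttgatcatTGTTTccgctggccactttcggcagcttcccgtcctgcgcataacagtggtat
Prr33: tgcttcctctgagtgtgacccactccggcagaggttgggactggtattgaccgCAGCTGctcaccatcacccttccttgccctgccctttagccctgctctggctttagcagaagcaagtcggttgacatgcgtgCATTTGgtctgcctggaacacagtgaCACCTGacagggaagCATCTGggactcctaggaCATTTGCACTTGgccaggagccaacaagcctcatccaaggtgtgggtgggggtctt
Nctc1: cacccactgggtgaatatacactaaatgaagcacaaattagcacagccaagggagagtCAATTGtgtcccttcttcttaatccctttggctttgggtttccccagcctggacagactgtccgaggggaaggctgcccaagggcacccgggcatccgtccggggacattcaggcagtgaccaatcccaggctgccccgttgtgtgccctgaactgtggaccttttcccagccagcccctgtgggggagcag

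The forkhead motif GTAAACA was in 0 of the 4 Igf2 promoters and 0 of the 11 neighbouring ones, on both strands, where 3.17% of all 32851 promoters of the table held it. The E-box CAGCTG, which reads the same on both strands and is a form of CANNTG, was in 0 of the 4 Igf2 promoters and in 1 of the 11 others, that of Prr33, against 13% of all promoters. With the shorter letters, TGTTT was in 1 of the 4 Igf2 promoters and 2 of the 11 others, against 46.4% of all promoters. CANNTG was in 1 of the 4 and 6 of the 11, against 66.2%. The Igf2 counts depended on the window: with the 50 bases after the start added (300 bases), TGTTT was in 3 of the 4, against 50.5% of all promoters, and CANNTG in 2 of the 4, against 72.3%. GTAAACA and CAGCTG stayed at 0 of the 4 in that window. The Igf2 promoter with the first listed start held 2 E-boxes, and that of Prr33 held 6. TGTTT and CANNTG were chosen after the data had been seen. These are letters in a window of another assembly, and no peak was placed on them.

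The myotube library listed 18 peaks in the domain (95% exact Poisson interval 10.7 to 28.4), or 69.2 per Mb. That was 5.58 times the density of chromosome 7 as a whole (12.4 per Mb) and 3.90 times that of all chromosomes (17.7 per Mb). Peaks crowd in many places of the myotube list. Cut into 9844 windows of the domain's length, the chromosomes held a median of 2 and a mean of 4.61 myotube peaks per window, and 476 windows (4.84%) held 18 or more. The domain was therefore denser than most windows, but far from the fullest, which held 181. The 260 kb before the domain held 3 myotube peaks, with folds of up to 14.76, and the 260 kb after it held 0.

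**Figure D1:**
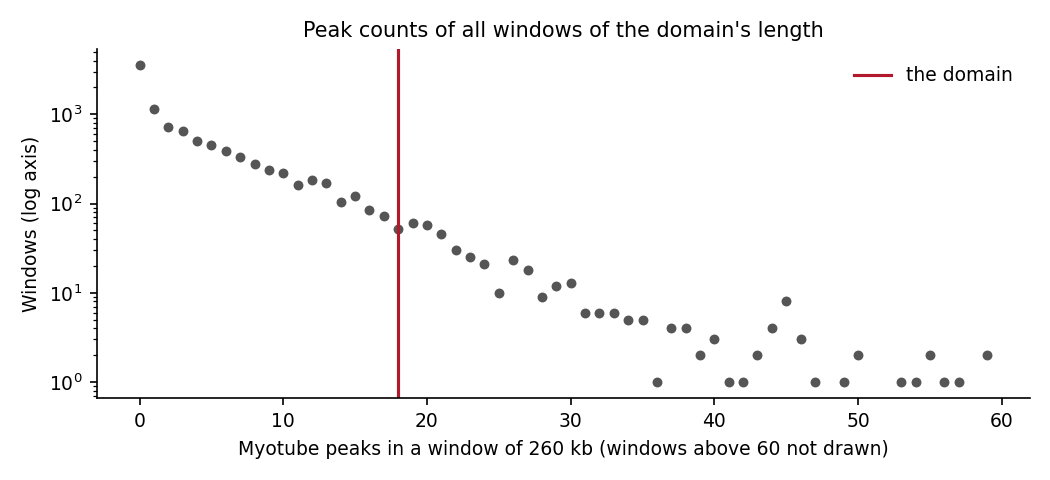
Number of windows (vertical, log axis) by the myotube peaks they held (horizontal), for the 9844 windows of 260 kb. The line marks the domain at 18 peaks, which 476 windows reached or passed. 27 windows above 60 peaks are not drawn.

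The myoblast library listed 0 peaks in the domain, with an upper Poisson bound of 3.69. A count of 0 was the usual state of that list: 9401 of the 9844 windows (95.5%) held no myoblast peak, and the mean was 0.0502 per window. The myoblast list had 5 peaks on all of chromosome 7. The nearest to the domain lay 29.8 Mb before its first summit, from 119873149 to 119873224, with a fold of 18.03 and 8 recovered reads. No site of the domain was therefore listed in both samples (0 of 18), and with 1 library per group no test of the difference was possible.

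Folds of the domain's peaks were set beside those of the myoblast list. Fold enrichment is the pileup of reads at the summit over the local background, as the authors' caller gave it, and the most frequent background of a list is called its floor. The myoblast floor was 0.44 reads and the myotube floor 1.51. The lowest myoblast fold at that floor was 13.52, from 6 reads, and the lowest myotube fold at its own was 5.29, from 8 reads. Of the 18 myotube peaks of the domain, 2 (11.1%, Wilson 95% interval 3.1% to 32.8%) had a fold of 13.52 or more, against 17% of all myotube peaks. The other 16 were below it. The myoblast list also held 105 peaks of lower fold, down to 1.56, each over a background above the floor (0.463 reads or more). The myoblast background at the 16 sites is not known, so whether an equal fold there would have been listed was not tested. The lists were called separately, and these folds are set side by side as a description.

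By median fold, the domain's peaks lay within the quartiles of the myotube list and below its median. Their median fold was 7.93 (quartiles 7.33 and 9.58), beside 8.59 (6.92 and 11.6) for all myotube peaks, and 7 of 18 lay above the list median. A fold of 10 or more was reached by 4 of 18 (22.2%, Wilson interval 9% to 45.2%), against 35.4% of the list. The interval takes neighbouring peaks of 1 library as independent, so it is no test of the difference. A fold of 20 was reached by 1 of 18 (5.56%), against 5.88%. A −log10 q-value of at least 5 was held by 15 of 18 (83.3%), against 82.6%, and one of at least 10 by 6 of 18 (33.3%), against 41.4%. The shares at a fold of 20 and a −log10 q-value of 5 lay near those of the list. Those at a fold of 10 and a −log10 q-value of 10 lay below. The Wilson interval held the list's share in both cases (16.3% to 56.3% for the latter).

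**Figure D2:**
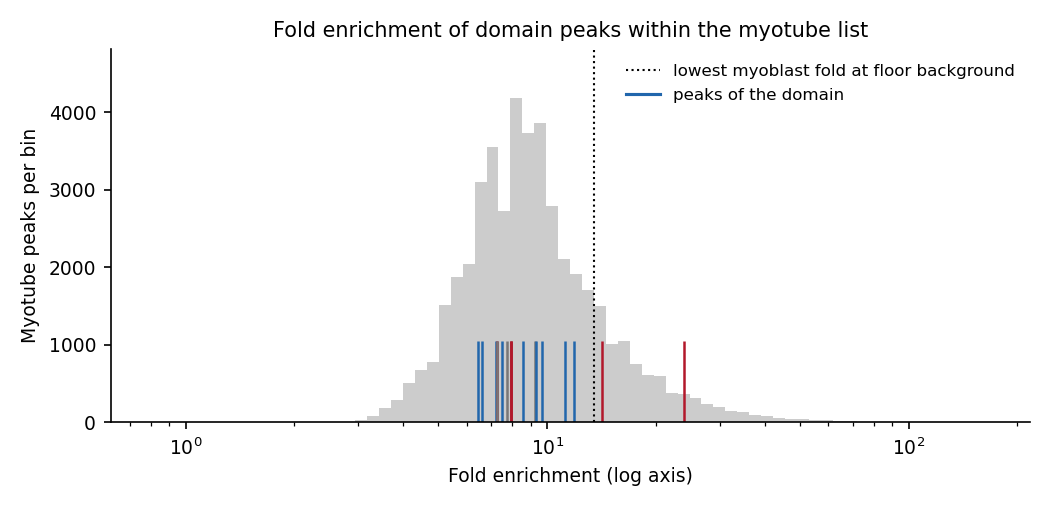
Number of myotube peaks per bin (vertical) by fold enrichment (horizontal, log axis), with short lines at the folds of the 18 domain peaks: red for the group with the strongest peak, blue for the other groups, grey for single peaks. The dotted line marks 13.52, the lowest myoblast fold at floor background, which 2 of the 18 passed.

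Along the chromosome the peaks are numbered 1 to 18 below. Joined where they lay within 12 kb of each other, they formed 3 groups, which held 14 peaks, and 4 single peaks. The groups were peaks 2 to 5 (149643203 to 149660659, 17457 bp), peaks 6 to 10 (149684465 to 149686610, 2146 bp) and peaks 13 to 17 (149736083 to 149748186, 12104 bp). Single peaks stood before, between and after them. Joined at 5 kb, only peaks 6 to 10 kept all their members, and the other groups split. The median gap between neighbouring summits was 5032 bp, beside 11524 bp in the whole list, and 5 of the 17 gaps (29.4%) were under 1 kb, against 13.1% of all gaps.

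**Figure D3:**
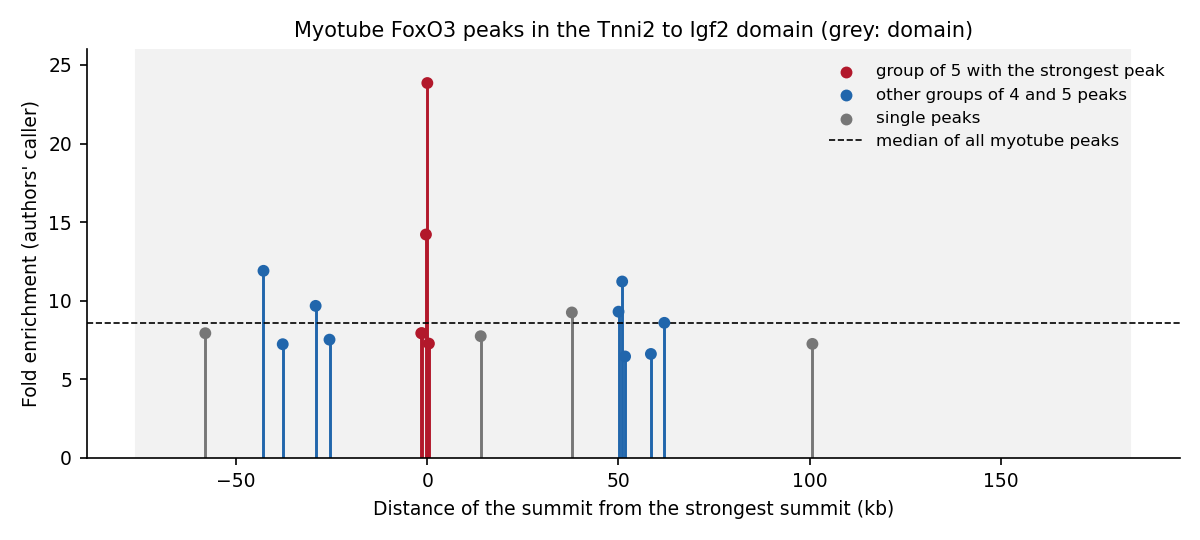
Fold enrichment (vertical) of the 18 myotube peaks by the distance of their summits from the strongest summit in kb (horizontal). Grey shading is the domain, the dashed line is the median fold of all myotube peaks (8.59), and the tallest line is peak 9 with a fold of 23.85.

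The strongest peak of the domain, peak 9, lay at chr7:149686004-149686332, with its summit at 149686137. It had a fold of 23.85 and a −log10 q-value of 34.17. The pileup recovered from its fold and p-value was 37 reads (95% exact Poisson interval 26.1 to 51.0) over a background of 1.55 reads. By fold it lay above 96.4% of the myotube list and by width, 329 bp, above 87.3%. Its fold was 3.01 times the domain's median and 1.68 times that of the next peak. It is the only domain peak with a fold over 20.

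The next by fold, peak 8, lay just beside it at chr7:149685588-149685833, 366 bp away between summits, with a fold of 14.21 and 26 reads (17.0 to 38.1) over 1.83 reads. The intervals of the reads at peaks 8 and 9 overlap, and their order in reads was not tested. Peaks 6 and 7, at 149684465 to 149684609 and 149684696 to 149684817, had 12 reads each and a fold of 7.93. Peak 10, at 149686489 to 149686610, had 11 reads and a fold of 7.27. The group thus consisted of 2 tall peaks with low ones on both sides, all near floor background (1.51 to 1.83 reads).

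This group was compact. Its 5 peaks covered 44.9% of its 2146 bp, whereas the group of peaks 2 to 5 was covered to 4.12% and that of peaks 13 to 17 to 11.1%. The myotube list had 444 groups of exactly 5 peaks under the same joining, with a median span of 17236 bp, and of these only the present group was no longer than 2146 bp. Larger groups held equally tight runs: over the whole list there were 84 separate runs of 5 summits within 2004 bp, the summit-to-summit span of the group, itself included. In height it did not stand apart, since 111 of the 444 groups, itself included, had a top fold of 23.85 or more.

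**Figure D4:**
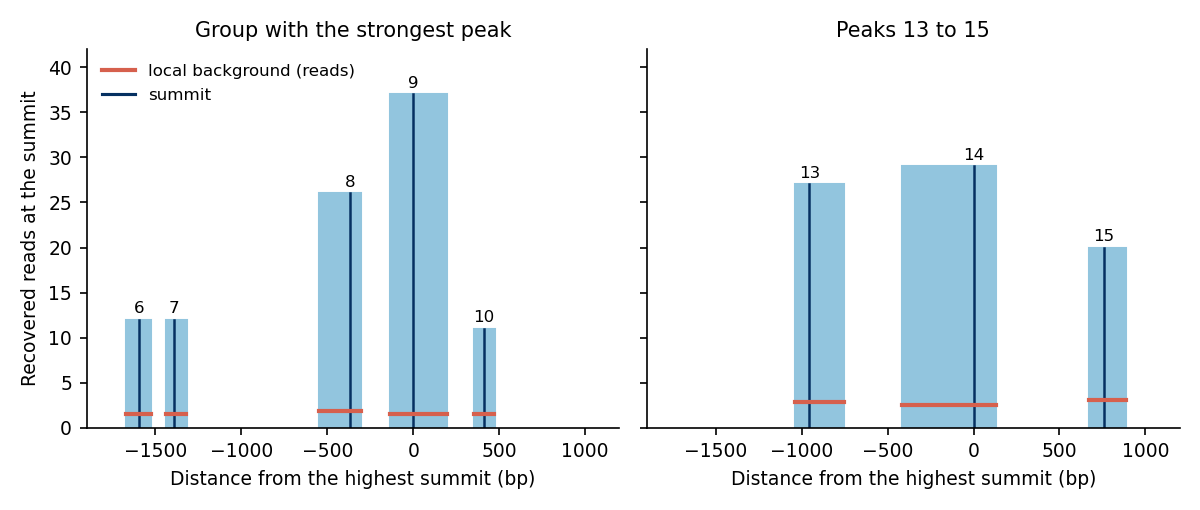
Reads recovered at the summit (vertical) for peaks 6 to 10 (left) and peaks 13 to 15 (right) by distance from the highest summit of the panel in bp (horizontal). Boxes span the listed peak and are drawn to the height of its summit, so they are not read profiles. Dark lines are summits and red lines the local background, which ran from 1.51 to 1.83 reads on the left and from 2.58 to 3.10 on the right.

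The other group of 5, whose tallest summit lay 51.0 kb from that of peak 9, was built differently. Its peaks 13, 14 and 15 lay within 1926 bp, and peaks 16 and 17 followed at distances of 6754 and 3521 bp between neighbouring summits. Peak 14, at chr7:149736700-149737250, had 29 reads (19.4 to 41.6) and a fold of 11.22. Peak 13, at 149736083 to 149736364, had 27 reads (17.8 to 39.3) and a fold of 9.30. Peak 15, at 149737790 to 149738008, had 20 reads (12.2 to 30.9) and a fold of 6.45, the lowest fold of the domain. By reads, peaks 13 and 14 stood beside peak 8 (26 reads), but their folds were lower.

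The local background at peaks 13 to 15 was above that of the rest of their group and of peaks 8 and 9. It was 2.90, 2.58 and 3.10 reads at peaks 13, 14 and 15, above 80.8%, 70.7% and 81.4% of the list, and the highest of these, at peak 15, was 2.05 times the floor. At peaks 16 and 17 of the same group it was at the floor, 1.51 reads. At peaks 8 and 9 it was 1.83 and 1.55 reads. What raised it at peaks 13 to 15 was not tested. No peak of the domain passed 3 times the floor (0 of 18), the level used here for raised background. The lowest background, 1.51 reads, was the floor, and 8 of 18 peaks (44.4%) were at it, against 20.5% of the list.

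Peak 14 was also the widest of the domain. Its 551 bp exceeded 98.2% of the list, and its summit lay 419 bp from its start, at 76.0% of its length. Widths otherwise ran from 122 bp to 329 bp, with a median over all 18 of 194 bp beside 186 bp in the list. The smallest width of the list, 122 bp, was that of 2 of 18 peaks (peaks 7 and 10), against 11.98% of all myotube peaks. Wider peaks had more reads, with a Spearman correlation of 0.69 over the 18 peaks and 0.50 over the list. Width and reads of a peak come from the same pileup, and peaks of 1 library are not replicates.

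The low peaks of the domain could not be ranked. Of the 18, 11 (61.1%) had between 10 and 15 reads, where 35.4% of the list had at most 15. The interval at 10 reads (4.80 to 18.4, peak 16) overlaps that at 15 reads (8.40 to 24.7, peak 18). Peaks 1, 6 and 7 had the same deposited fold, p-value and q-value, which gave 12 reads over the floor for each. For these 11 peaks the interval lay wholly below that of peak 9. The median pileup of the domain was 13.5 reads, beside 18 reads for the list, and the 4 summits of most reads (peaks 8, 9, 13 and 14) held 119 of the 313 reads recovered at the 18 summits (38.0%).

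**Figure D5:**
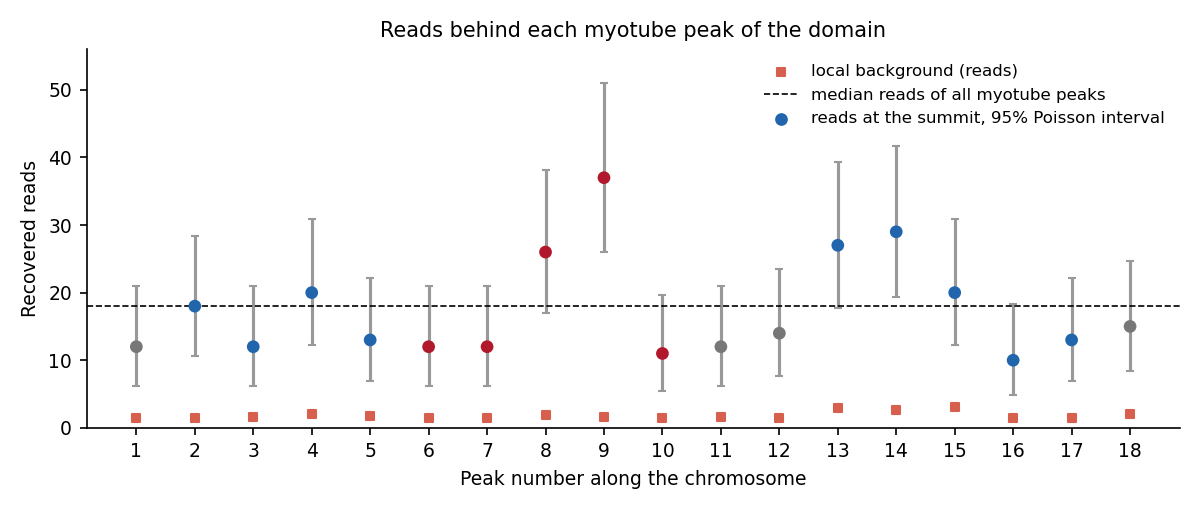
Reads recovered at the summit (vertical) for the 18 myotube peaks in order along the chromosome (horizontal), with 95% exact Poisson intervals. Squares are the local background and the dashed line the median of all myotube peaks (18 reads). Red points are the group with the strongest peak, blue the other groups and grey single peaks.

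The group of 4 was loose and of middling height. Peak 2, at chr7:149643203-149643337, was the third by fold in the domain, at 11.90, from 18 reads (10.7 to 28.4) over the floor. Peak 4, at 149656779 to 149657027, had a fold of 9.67 from 20 reads (12.2 to 30.9) over 2.07 reads. Peaks 3 and 5 had folds of 7.23 and 7.52, with 12 and 13 reads. The rank of peak 2 by fold came with a low background. By reads it was below peaks 4, 8, 9, 13, 14 and 15. Its interval overlaps each of theirs, though that of peak 9 (26.1 to 51.0) only at its end. Overlap of intervals is no test, so its order in reads was not tested.

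Of the remaining peaks, peak 12, at 149723892 to 149724027, had a fold of 9.25 from 14 reads. It stood 12055 bp from the group that follows it, just outside the joining distance. Peak 17, at 149748061 to 149748186, had a fold of 8.59, equal to the list median, from 13 reads. Peak 16 had a fold of 6.61 and 10 reads, the fewest of the domain. Peak 11, at 149700075 to 149700282, had a fold of 7.74 and 12 reads. In peaks 1, 11 and 16 the summit lay within the outer 20% of the peak, where 9.59% of the list's summits did so.

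The peaks were concentrated toward the lower coordinates of the domain. In GRCm38.p6 coordinates rise from Tnni2 to Igf2, and this order was not checked on mm9. The 130 kb up to the middle of the domain held 15 peaks and the 130 kb after it held 3. Cut into 13 bins of 20 kb, the domain had a peak in 8 bins. The longest stretch between neighbouring summits was 38.7 kb, between peak 17 and peak 18, longer than 75.3% of the gaps in the list. Peak 18, at 149786768 to 149786999, had a fold of 7.25 and 15 reads over 2.07 reads and was the last of the domain.

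After peak 18 no peak was listed for 83115 bp up to the end of the domain. The next myotube peak of the chromosome lay from 150194076 to 150194271 with a fold of 12.25, 407.3 kb from peak 18 between summits, a gap longer than 97.7% of those in the list. At the other edge, peak 1 (149628020 to 149628260, fold 7.93) lay 18045 bp inside the domain, and the peak just outside it (149577647 to 149577848) had a fold of 10.06. The peaks of the domain thus spanned 158.8 kb from the first to the last summit. They covered 3843 bp, or 1.48% of the domain, beside 0.261% of chromosome 7. Where the stretches without peaks lie relative to H19 and Igf2 was not examined, and a stretch without a listed peak shows only that no site passed the authors' threshold there.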

How the data were processed

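Per the labels, 1 FoxO3 ChIP-seq library came from C2C12 myoblasts and 1 from myotubes. The submitters' processing notes name MACS2 2.1.0 and mm9. Aligner, control library and threshold: not given in the sources used here. The deposited lists are narrowPeak tables, per the file headers, called per sample. For each peak the authors gave a fold enrichment, which is a ratio, p- and q-values as −log10, and a score of 10 times −log10 q. These scores and folds are the authors' and describe peaks within a list.

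No read counts were used, so total depth is unknown. The whole-number pileup whose Poisson probability of being exceeded best matches each deposited fold and p-value was taken, within 0.02 on the log10 scale. It was found for 501 of 501 myoblast and 45452 of 45457 myotube peaks, and was unique (1 fit) for each of the 18 domain peaks. On simulated peaks, 100% of 500 were recovered exactly with either floor. The simulated folds and p-values were made with the same Poisson formula. This checks the code, and not whether the authors' caller worked in that way. Intervals cover counting error only, and those on numbers or shares of peaks take neighbouring peaks as independent.

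Density used each chromosome's span between its outermost peaks, and windows started where that span does. Overlap meant at least 1 bp. Peaks within 12 kb were joined. With 1 library per group there was no test between conditions. Members, lists and settings were chosen with earlier results of these data known. Named were the 4 genes and their neighbours in the gene table, the 10 peaks of highest fold, the widest, those of lowest and highest background, the first and last, and those beside the longest gap. Peaks 3, 5, 10, 11 and 16, outside this rule, were named after their values were seen. Alternatives were stricter q-values, other overlap rules, joining distances and windows. Python 3.11.15, numpy 2.4.6, pandas 2.3.3, scipy 1.17.1 and matplotlib 3.10.9 were used.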

Additional observations from a re-analysis of the deposited data

How the results depend on the processing

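Of 34 alternative values, 29 stayed within 1.5 times, or within the interval, of the reported value and 5 moved. With −log10 q cut at 5 the domain held 15 myotube peaks, and cut at 10 it held 6. Its density remained 3.14 to 3.94 times that of all chromosomes under these thresholds. The share of peaks past the fold was 5.56% at a fold of 20. Joining at 25 kb gave 1 group of 3 or more, holding 17 peaks, and joining at 5 kb gave 2. At 5 kb peaks 6 to 10 stayed together. Peaks 2 to 5 split into groups of 2 and 2, and peaks 13 to 17 into groups of 3 and 2. The shorter letters TGTTT and CANNTG, chosen after the data were seen, were each in 1 of the 4 Igf2 promoters over 250 bases, and in 3 and 2 of them over 300 bases. These moves follow from what each setting removes, joins or shortens. The stricter thresholds and the filters on width and background only remove peaks, so the myoblast count of 0 could not change under them, and their values say nothing of its stability. Placing peaks by any base also gave 0. Other values among the 29 could not move either. With no myoblast peak in the domain, no overlap rule could list a shared site. No domain peak had raised background, so that filter removed nothing. A count of 0 on both strands cannot change on the given strand alone. The 29 is therefore not a measure of stability. Peaks at promoters were not run, as no mm9 annotation was used. No paired analysis was possible because there is a single library on each side. The few reads per peak limit any ranking within the domain.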
